A study of Mus musculus with 24 samples.

Results

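The values of 39 genes of DNA replication and mitosis were followed through 24 QuantSeq libraries of lymphoid progenitors (LPs) in which *Cbfb*, *Ctcf* or *Med12* had been targeted. They are 20 S-phase genes, *Mcm2* to *Mcm7*, *Pcna*, *Gins2*, *Cdc6*, *Cdt1*, *Cdc45*, *Rrm1*, *Rrm2*, *Tyms*, *Pola1*, *Prim1*, *Fen1*, *Uhrf1*, *E2f1* and *Ccne2*, and 19 mitotic genes, *Mki67*, *Top2a*, *Ccna2*, *Ccnb1*, *Ccnb2*, *Cdk1*, *Plk1*, *Aurka*, *Aurkb*, *Bub1*, *Bub1b*, *Cdc20*, *Cenpe*, *Cenpf*, *Kif11*, *Tpx2*, *Birc5*, *Ube2c* and *Nusap1*. They were chosen by symbol for their known roles, with earlier results of these data known. Each was found once in the tables of both experiments, among 55487 listed genes. The cells of every group were Cas9-LP lines, made from fetal liver progenitors that lack *Ebf1*, a gene B cells need, and that carry a Cas9 knock-in at Rosa26, so the controls share both alleles. They grew with SCF, Flt3L and IL-7 on OP9 stroma as LPs, or on OP9-DLL4 stroma, which presents the Notch ligand DLL4, as Phase 1 cells, the earliest stage of the T cell programme. Stage and stroma therefore changed together and cannot be told apart. A retrovirus delivered 3 pooled sgRNA vectors for a gene, or sgControl against luciferase, together with the surface marker hNGFR, and hNGFR+CD45+ cells were sorted 5 days later. Phase 1 cells were under Notch stimulation on OP9-DLL4 for 2 days, not for all 5 days after transduction. Experiment 1 held LPs and Phase 1 cells, each with sgControl or sgCbfb. Experiment 2 held LPs with sgControl, sgCbfb, sgCTCF or sgMed12. Each of the 8 groups had 3 libraries, from independent cultures by the methods of the study.

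A dividing cell copies its genome in S phase and separates the copies in mitosis, and many genes for each task are transcribed in a wave of their own. Genes of replication are turned on late in G1 by E2F factors, and their products load and drive the Mcm helicase, make deoxynucleotides and synthesise DNA. Genes of mitosis peak later, in G2 and M, under factors that bind the CHR element and the CCAAT box through the MuvB and NF-Y complexes, and their products drive entry into mitosis, build the spindle and release sister chromatids. In bulk libraries a lower level of such a gene in fewer cycling cells cannot be told apart from less of its RNA in each cell.

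The promoters of the 2 classes held different letters, given here as a description. RefSeq promoter sequences on GRCm38.p6 were matched for 33 of the 39 genes, and the 300 bases from 250 before to 50 after each start were searched on both strands for 5 motifs. An E2F match was the run TTCCCGC, the variant TTCGCGC, the variant TTGCCGC or the variant TTGGCGC. The CCAAT box was searched by those letters, the CHR element as TTTGAA, RUNX as TGTGGT and CTCF by its core motif. The reverse of TTGGCGC can share letters with CCAAT. E2F letters stood in 12 of 17 S-phase promoters (70.6%) and in 3 of 16 mitotic ones (18.8%), beside 10.9% of the 27025 genes with a promoter entry. The CHR letters stood in 11 of 16 mitotic promoters (68.8%) and in 3 of 17 S-phase ones (17.6%), beside 20.2% of all. CCAAT was common in both, at 87.5% and 70.6% beside 41.1%. The RUNX letters stood in 17.6% of S-phase and 12.5% of mitotic promoters beside 18.9% of all, and the CTCF letters in 0 of the 33. The other replication genes of a list of 48 were like the S-phase genes, with E2F letters in 59.5% of 37, and the other mitotic genes of a list of 58 were like the mitotic genes, with CHR letters in 68.8% of 48. A match of letters is a description and not a site.

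The 250 bases before the start are shown 5′ to 3′ for 7 genes that the results turn on, with every match to E2F, CCAAT or CHR on either strand in capitals. The first 3 are S-phase genes, and the other 4 are mitotic genes. *Mcm3* was the gene with most calls, *Rrm2* and *Pola1* led the fall with sgCTCF, *Cdc20* and *Cdk1* had the largest differences between the stages, and *Nusap1* and *Top2a* fell with sgMed12. The windows are chr1:20820313-20820562 (minus strand) for *Mcm3*, chr12:24708004-24708253 (plus) for *Rrm2*, chrX:93632156-93632405 (minus) for *Pola1*, chr4:118437344-118437593 (minus) for *Cdc20*, chr10:69352913-69353162 (minus) for *Cdk1*, chr11:99024190-99024439 (minus) for *Top2a* and chr2:119618048-119618297 (plus) for *Nusap1*.
Mcm3: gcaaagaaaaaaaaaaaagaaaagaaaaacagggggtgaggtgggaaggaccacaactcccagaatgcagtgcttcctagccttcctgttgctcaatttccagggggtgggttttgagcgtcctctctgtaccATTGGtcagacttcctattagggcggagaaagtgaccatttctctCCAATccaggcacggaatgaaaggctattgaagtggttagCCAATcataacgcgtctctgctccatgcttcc
Rrm2: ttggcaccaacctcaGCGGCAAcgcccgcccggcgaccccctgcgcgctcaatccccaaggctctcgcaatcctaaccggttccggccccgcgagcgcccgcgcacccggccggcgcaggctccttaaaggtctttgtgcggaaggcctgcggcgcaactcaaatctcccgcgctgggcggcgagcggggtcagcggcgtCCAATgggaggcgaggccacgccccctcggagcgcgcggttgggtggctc
Pola1: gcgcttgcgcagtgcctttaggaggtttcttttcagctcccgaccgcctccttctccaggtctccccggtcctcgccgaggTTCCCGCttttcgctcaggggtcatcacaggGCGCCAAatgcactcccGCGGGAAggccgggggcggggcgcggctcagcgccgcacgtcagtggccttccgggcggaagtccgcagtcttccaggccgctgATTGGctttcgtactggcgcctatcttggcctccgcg
Cdc20: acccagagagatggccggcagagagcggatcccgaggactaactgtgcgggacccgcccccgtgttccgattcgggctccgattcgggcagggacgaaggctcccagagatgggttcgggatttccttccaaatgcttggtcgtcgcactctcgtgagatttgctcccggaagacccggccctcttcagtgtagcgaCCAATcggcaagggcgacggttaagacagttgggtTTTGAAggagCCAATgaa
Cdk1: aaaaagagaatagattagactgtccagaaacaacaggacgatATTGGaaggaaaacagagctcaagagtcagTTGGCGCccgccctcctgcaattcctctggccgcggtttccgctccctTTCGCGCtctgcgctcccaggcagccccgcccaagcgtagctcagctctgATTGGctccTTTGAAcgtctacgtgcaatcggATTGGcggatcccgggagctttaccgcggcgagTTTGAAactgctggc
Top2a: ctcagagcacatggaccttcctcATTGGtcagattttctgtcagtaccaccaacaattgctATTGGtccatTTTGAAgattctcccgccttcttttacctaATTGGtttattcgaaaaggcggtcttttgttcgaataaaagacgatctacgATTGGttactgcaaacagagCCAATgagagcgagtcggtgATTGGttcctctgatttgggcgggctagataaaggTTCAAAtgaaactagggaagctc
Nusap1: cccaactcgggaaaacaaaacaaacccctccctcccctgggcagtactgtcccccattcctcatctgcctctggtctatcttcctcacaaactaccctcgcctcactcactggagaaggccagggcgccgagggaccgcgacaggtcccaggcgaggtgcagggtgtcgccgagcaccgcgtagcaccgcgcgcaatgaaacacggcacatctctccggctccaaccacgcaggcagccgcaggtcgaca
*Mcm3* held 3 CCAAT boxes here, and its 3 matches to E2F lay within the 50 bases after the start, which are not shown. Of these E2F matches, those at positions 39 and 42 share letters. *Mcm3* also held a RUNX match at position -201, which is not in capitals. In the bases shown *Pola1* held 3 E2F matches and 1 CCAAT box, and *Rrm2* 1 of each. A further E2F match of *Pola1* lay after the start. *Cdc20* held a CHR match flanked by 2 CCAAT boxes, and *Top2a* 2 CHR matches with 6 CCAAT boxes. *Cdk1* held both kinds, with 2 E2F matches, 3 CCAAT boxes and 2 CHR matches. *Nusap1* held none of the 5 motifs in its window.

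**Figure D1:**
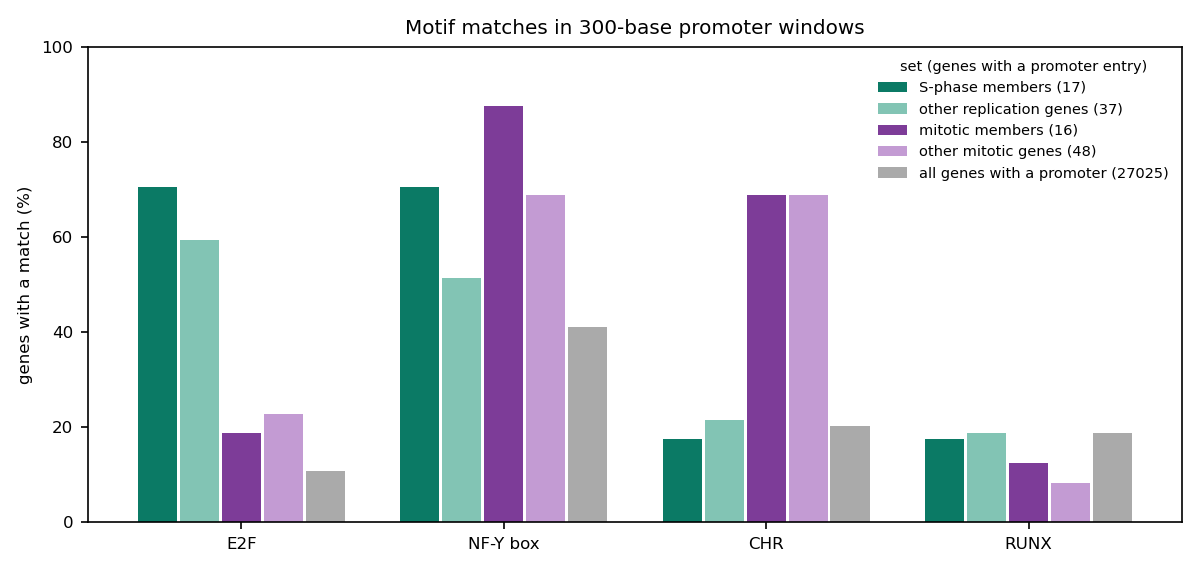
Share of genes (%, vertical axis) whose 300-base promoter window holds the letters of E2F, the NF-Y box (CCAAT), CHR or RUNX, for the S-phase and mitotic members, the other genes of each class and all genes with a promoter entry. The E2F bar is tall for S-phase members at 70.6% and the CHR bar for mitotic members at 68.8%, beside 10.9% and 20.2% of all genes.

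Before the results, 2 libraries stood apart from their groups, Phase 1 sgControl replicate 3 and sgMed12 replicate 2. The chi-square of the reads per gene was 10.71 and 8.75 between the first and its 2 replicates, beside 2.46 to 4.37 for the other pairs of experiment 1. It was 17.56 and 9.43 between the second and its replicates, beside 2.75 to 5.01 for the other pairs of experiment 2. In Phase 1 sgControl replicate 3, 7 of the 39 genes (*Gins2*, *Cdc45*, *Fen1*, *Cdk1*, *Aurkb*, *Bub1* and *Cdc20*) lay below 50% of the lower of the other 2 replicates, as did 748 genes, or 9.3% of those with a group mean of at least 10 CPM. In the other 23 libraries no member did, and 0.0366% to 1.54% of genes did. Calls among the 39 genes that rest on these 2 libraries are given with and without them. Calls in the other gene lists are given with all libraries only. Reads on genes ranged from 1363263 to 1743319 in experiment 1 and from 3354483 to 4326782 in experiment 2. The sgMed12 libraries held 13.66%, 8.44% and 11.18% of their reads on mitochondrial genes, and the other libraries 6.76% to 8.15%. *Cbfb* fell with sgCbfb in LPs, from 86.5 ± 9.30 (SD, n = 3) to 40.2 ± 5.18 CPM in experiment 1 and from 114 ± 8.37 to 48.4 ± 6.93 CPM in experiment 2 (limma adjusted p = 0.00548 and 4.34e-06), while in Phase 1 cells the 66.5 ± 19.2 and 53.9 ± 9.69 CPM overlapped (adjusted p = 0.591). *Ctcf* fell with sgCTCF from 391 ± 30.8 to 306 ± 30.0 CPM (limma adjusted p = 0.021). *Med12* had 5.13 ± 1.26 CPM with sgControl and 7.01 ± 3.37 with sgMed12 (limma adjusted p = 0.663), where its lowest library held 11 reads. The RNA of a targeted gene need not fall when its protein is lost, and protein was not measured in these libraries. The study checked the 3 proteins by immunoblot in Cas9-LPs, 3 days after transduction. All 8 lymphoid markers were present. Of 20 stromal markers, 7 were at 0 in every library of experiment 1 and 2 in experiment 2 (*Col3a1* and *Postn* in both), and the list summed to between 4.99 and 65.8 CPM.

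All 39 genes passed the filter on low values in both experiments. S-phase genes ranged from 15.4 to 1324 CPM over genes and libraries and mitotic genes from 11 to 2909 CPM, and the lowest values rested on 21 and 15 reads. CPM here are reads counted at the 3′ end of a gene's transcripts, scaled by the total of reads on genes in the library. The sum over the 20 S-phase genes was 3567 to 3773 CPM in sgControl LPs, 3096 to 3326 in sgCbfb LPs, 4253 to 4781 in sgControl Phase 1 cells and 3818 to 4105 in sgCbfb Phase 1 cells, so the 4 groups of experiment 1 did not overlap. The sum over the 19 mitotic genes was 6849 to 6953, 6606 to 7235, 5389 to 6144 and 6456 to 6918 CPM in the same order. Here the sgControl Phase 1 cells alone lay apart, below the rest. The mitotic sum divided by the S-phase sum of the same library was 1.83 to 1.92 in sgControl LPs, 2.01 to 2.34 in sgCbfb LPs, 1.23 to 1.29 in sgControl Phase 1 cells and 1.69 to 1.72 in sgCbfb Phase 1 cells. Without *Mcm7* and *Top2a*, the members that weigh most in the sums, the ratio was 1.61 to 1.69, 1.69 to 1.91, 0.95 to 1.05 and 1.33 to 1.4, and sgControl Phase 1 cells were again lowest. In experiment 2 the S-phase sum was 4180 to 4427 CPM with sgControl, 3346 to 4174 with sgCbfb, 3120 to 3393 with sgCTCF and 3118 to 4044 with sgMed12, and every targeted library lay below every sgControl library. The mitotic sum was 7154 to 7375, 6467 to 7909, 6277 to 6864 and 5336 to 5954 CPM. The ratio was 1.62 to 1.76 with sgControl, 1.55 to 2.12 with sgCbfb, 2.01 to 2.08 with sgCTCF and 1.38 to 1.71 with sgMed12. These sums are given as a description, with no test.

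**Figure D2:**
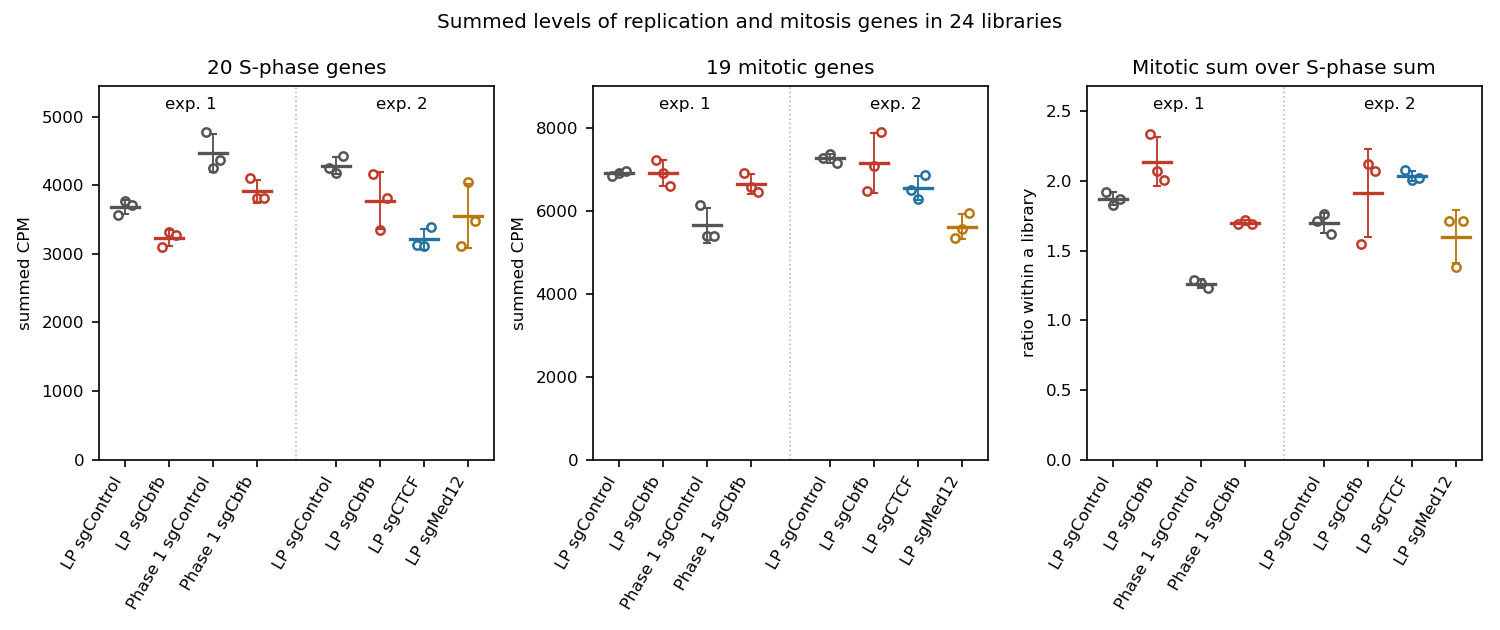
Summed CPM of the 20 S-phase genes (left) and the 19 mitotic genes (middle), and the mitotic sum divided by the S-phase sum of the same library (right), for each library of the 8 groups. Circles are libraries, bars the mean and whiskers the SD of 3 libraries. The ratio is lowest in Phase 1 sgControl cells, at 1.23 to 1.29.

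The genes with most calls were first described library by library. A call is an adjusted p under 0.05 from limma on log2(CPM + 1), and calls were counted over 6 comparisons. These were sgCbfb against sgControl in LPs of experiment 1, in LPs of experiment 2 and in Phase 1 cells, Phase 1 cells against LPs with sgControl, and sgCTCF and sgMed12 against sgControl in LPs. *Mcm3*, a subunit of the Mcm2-7 helicase, was called in 5 of the 6. Its level was 405, 429 and 398 CPM in sgControl LPs of experiment 1, 316, 362 and 390.4 in sgCbfb LPs, 604, 583 and 567 in sgControl Phase 1 cells and 469, 435 and 405 in sgCbfb Phase 1 cells. In experiment 2 it was 468, 433 and 429 CPM with sgControl, 401, 309 and 354 with sgCbfb, 333, 308 and 331 with sgCTCF and 323, 377 and 345 with sgMed12. The sgControl group was the highest at each stage and in each experiment, with no overlap with a targeted group.

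*Mcm7*, another subunit of the helicase, was called in 2 comparisons. It had 984, 1039 and 1039.8 CPM in sgControl LPs, 827, 867 and 866 in sgCbfb LPs, 1319.9, 1069 and 1324 in sgControl Phase 1 cells and 1072, 948 and 910.5 in sgCbfb Phase 1 cells. In experiment 2 it had 1063, 1095 and 1168 CPM with sgControl, 1079, 836 and 1004 with sgCbfb, 765, 812 and 875 with sgCTCF and 703, 1062 and 767 with sgMed12. All 3 sgCTCF libraries lay below all sgControl libraries, whereas the sgMed12 libraries split, with replicate 2 almost at the sgControl level. *Mcm7* shares 321 bases of exon with *Ap4m1* on the opposite strand, and whether counting used strand is not given in the sources used here. The same holds for *Gins2* (2758 bases, with *Gse1*), *Fen1* (1909), *Ccne2* (609), *Ube2c* (592), *Ccna2* (510), *Cdc45* (209), *Nusap1* (172), *Plk1* (156) and *Cdc20* (53, with *Elovl1*), so reads of these genes and their partners may not be told apart.

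*Rrm2*, the small subunit of ribonucleotide reductase, which makes deoxynucleotides, had 116, 114 and 105 CPM in sgControl LPs, 88.2, 125 and 118 in sgCbfb LPs, 135, 120.0 and 91.7 in sgControl Phase 1 cells and 113, 132 and 112 in sgCbfb Phase 1 cells. These 4 groups overlapped. In experiment 2 it had 130.0, 129 and 165 CPM with sgControl, 130.3, 117 and 145 with sgCbfb, 66.3, 76.3 and 90.4 with sgCTCF and 56.5, 124 and 82.9 with sgMed12. The sgCTCF libraries were low throughout, and sgMed12 replicate 2 was again the highest of its group. *Rrm1*, the large subunit, had 279.8, 294 and 342 CPM in sgControl LPs, 308, 317 and 328 in sgCbfb LPs, 342, 366 and 348 in sgControl Phase 1 cells and 373, 385 and 364 in sgCbfb Phase 1 cells. It had 411, 406 and 427 CPM with sgControl in experiment 2, 426, 386 and 406 with sgCbfb, 301, 298 and 308 with sgCTCF and 307, 383 and 390.0 with sgMed12. The sgCTCF libraries were close to each other and well below both sgControl and sgCbfb.

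Among mitotic genes *Cdc20*, the activator of the anaphase-promoting complex that releases sister chromatids, was called in 3 comparisons. It had 207, 191 and 199.8 CPM in sgControl LPs, 158, 188 and 149 in sgCbfb LPs, 136, 105 and 52.1 in sgControl Phase 1 cells and 163, 178 and 157 in sgCbfb Phase 1 cells. In experiment 2 it had 215, 235 and 228 CPM with sgControl, 199.7, 231 and 232 with sgCbfb, 189, 217 and 212 with sgCTCF and 106, 212 and 165 with sgMed12. The sgControl Phase 1 libraries lay below every other library of experiment 1. *Cenpf*, a protein of the kinetochore, had 432, 456 and 424 CPM in sgControl LPs, 494, 461 and 409 in sgCbfb LPs, 320.4, 288 and 323 in sgControl Phase 1 cells and 378, 409 and 340.0 in sgCbfb Phase 1 cells. It had 405, 417 and 406 CPM with sgControl in experiment 2, 376, 474 and 487 with sgCbfb, 329.5, 334 and 361 with sgCTCF and 311, 273 and 374 with sgMed12. Again the sgControl Phase 1 cells were lowest in experiment 1, and in experiment 2 the sgCTCF and sgMed12 libraries all lay below sgControl. The 3′ end of *Cenpf* holds a repeat that other transcripts share, so some of its reads may belong elsewhere. The 3′ ends of *Mcm7* and *Ccnb1* have near copies too, in *Gm5487* (up to 500 bases) and *Ccnb1-ps* (up to 394), among others. These 2 copies reached at most 1.41 and 0.56 CPM. How reads that match several genes were counted is not given in the sources used here.

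*Ccnb1*, cyclin B1, the partner of *Cdk1* at entry into mitosis, had 117, 108 and 118 CPM in sgControl LPs, 115, 119 and 116 in sgCbfb LPs, 91.0, 76.8 and 45.5 in sgControl Phase 1 cells and 115, 99.9 and 107 in sgCbfb Phase 1 cells. It had 162, 138 and 134 CPM with sgControl in experiment 2, 131, 123 and 145 with sgCbfb, 131, 130.3 and 136 with sgCTCF and 96.4, 129 and 97.9 with sgMed12. Its low groups were the sgControl Phase 1 cells and sgMed12 LPs. *Bub1b*, which encodes the checkpoint protein BubR1, had 118, 89.8 and 86.7 CPM in sgControl LPs, 89.6, 60.2 and 75.6 in sgCbfb LPs, 70.6, 56.8 and 29.3 in sgControl Phase 1 cells and 99.2, 89.8 and 70.1 in sgCbfb Phase 1 cells. In experiment 2 it had 118, 129 and 110.3 CPM with sgControl, 88.8, 100.02 and 116 with sgCbfb, 93.9, 96.9 and 101 with sgCTCF and 89.3, 82.2 and 89.4 with sgMed12. The sgMed12 libraries of *Bub1b* were close together and below all sgControl libraries.

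**Figure D3:**
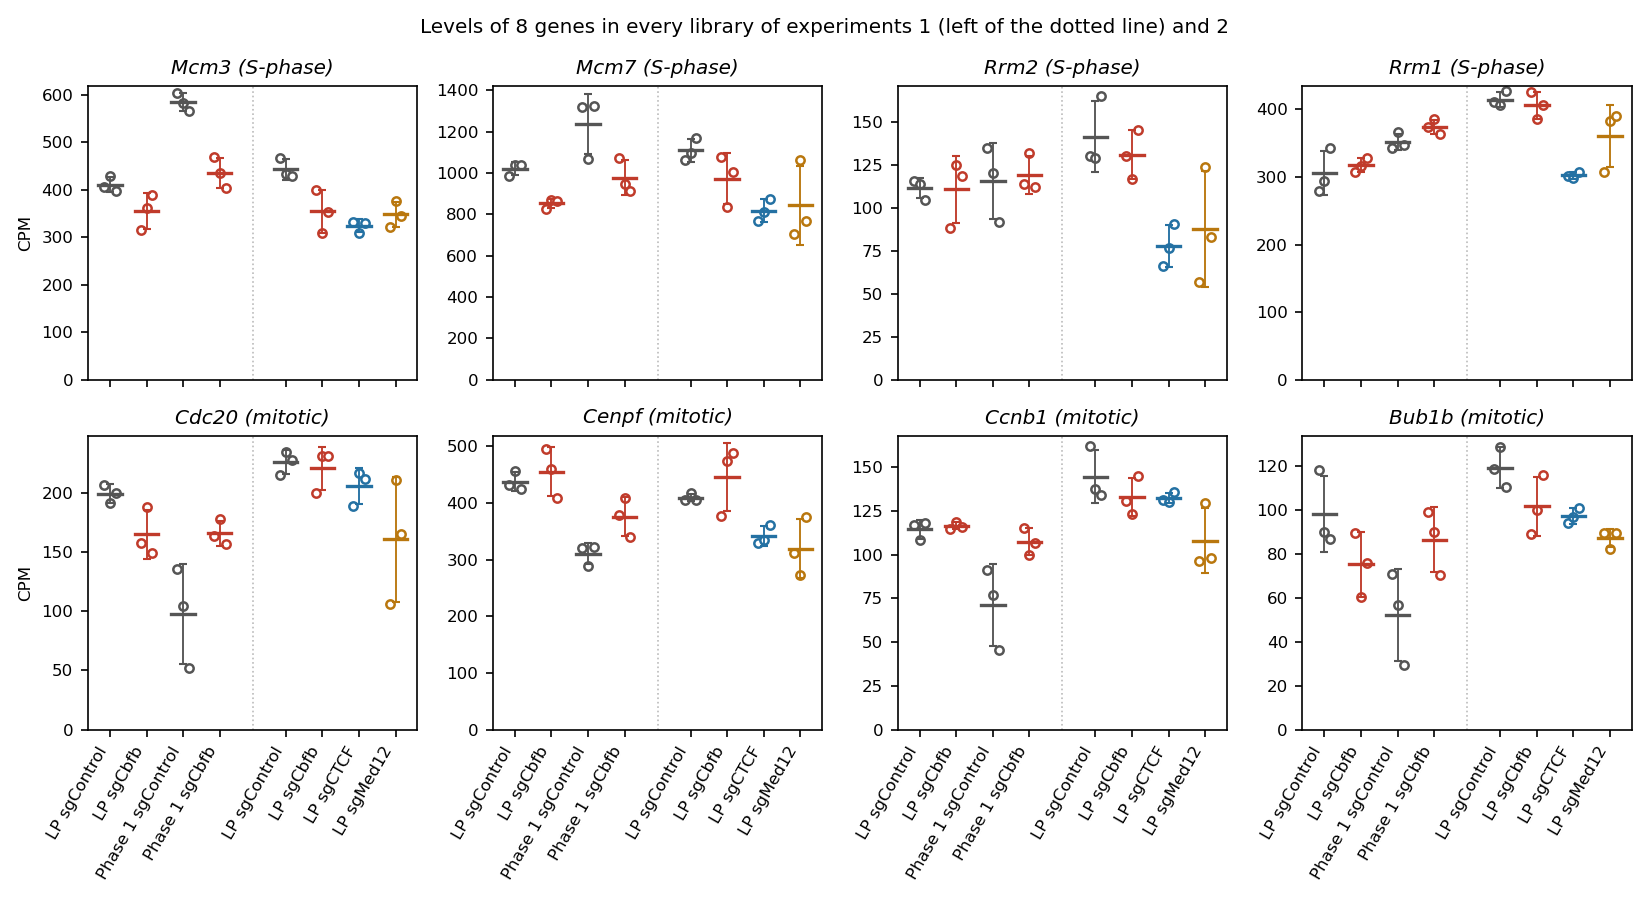
CPM of the 4 S-phase genes (top) and the 4 mitotic genes (bottom) with most calls, in every library of the 8 groups, with experiment 1 left of the dotted line. Circles are libraries, bars the mean and whiskers the SD of 3 libraries. *Cdc20* ranges from 52.1 to 136 CPM in Phase 1 sgControl cells and from 191 to 207 CPM in sgControl LPs, and *Rrm2* from 66.3 to 90.4 CPM with sgCTCF.

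Of the 39 genes, 28 were called in at least 1 of the 6 comparisons and 11 in none. The 11 were the S-phase genes *Pcna*, the sliding clamp of DNA polymerases, *Cdc6*, a loader of the Mcm helicase, *Ccne2*, a G1/S cyclin, *Prim1*, a subunit of primase, and *Cdc45* and *Gins2*, partners of the Mcm helicase, and the mitotic genes *Tpx2*, a spindle assembly factor, *Ccna2*, cyclin A2, the kinases *Aurka* and *Aurkb*, and the checkpoint kinase *Bub1*. *Gins2*, *Cdc45* and *Aurkb* were also among the members with the fewest reads, and their precision was low, with median coefficients of variation of 17%, 17.3% and 18.6% over the 8 groups.

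The mitotic class had its largest number of calls between the stages. In sgControl cells 9 of the 19 mitotic genes were lower in Phase 1 than in LPs and none was higher, whereas 3.23% of all genes tested were called lower. The median log2 difference was -0.56 over the mitotic genes, 18 of which were negative, and -0.07 over all genes. *Cdc20* fell by 1.13 on the log2 scale (SE 0.22), from 199 ± 7.92 to 97.6 ± 42.5 CPM (SD, n = 3, limma adjusted p = 0.00215). *Bub1b* fell by 0.97 (SE 0.25, adjusted p = 0.0196). *Ube2c*, the ubiquitin-conjugating enzyme that works with the anaphase-promoting complex, had 322, 375 and 379.6 CPM in LPs and 242, 205 and 122 CPM in Phase 1 cells, without overlap, and fell by 0.97 (SE 0.18, adjusted p = 0.000922). The other 6 were *Ccnb1*, the mitotic kinase *Plk1*, *Ccnb2*, *Cenpf*, the spindle motor *Kif11* and the kinetochore motor *Cenpe*, with log2 differences between -0.74 and -0.38. The groups did not overlap for 13 mitotic genes, all lower in Phase 1, beside 12.1% of all genes in that direction. The remaining members were not all low. *Mki67* had 698, 672 and 667 CPM in LPs and 632, 597 and 742 in Phase 1 cells, a log2 difference of -0.05, and the differences were -0.11 for *Top2a* and 0.02 for *Birc5*, the survivin gene. *Cdk1*, named here after its values were seen, had the largest difference of the class, -1.17, but was not called (adjusted p = 0.121). It had 285, 287 and 234 CPM in LPs and 258, 206 and 30.8 in Phase 1 cells, so its difference rested on Phase 1 replicate 3. Without that library 5 mitotic genes were called lower (*Cdc20*, *Ube2c*, *Bub1b*, *Cenpf* and *Tpx2*, 4 of them among the 9), and the median was -0.35 with 18 of 19 negative. The count was 4 without sgControl LP replicate 1 and 2 without replicate 2, and edgeR called 6 lower, with 2.95% of all genes.

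Most S-phase genes had positive differences between these stages. *Mcm3* rose from 411 ± 16.1 to 585 ± 18.7 CPM (SD, n = 3), by 0.51 on the log2 scale (SE 0.11, limma adjusted p = 0.00478), and was the only 1 of 20 called, beside 3.26% of all genes called higher. The median log2 difference was 0.24, with 14 of 20 positive, and 6 genes did not overlap, all higher, beside 9.77% of all genes. *Mcm6* had a log2 difference of 0.37 (adjusted p = 0.0507) and *Uhrf1*, which recruits the maintenance DNA methyltransferase to new DNA, of 0.49 (adjusted p = 0.0636). *Gins2*, *Cdc45* and *Mcm2* were negative, at -0.31, -0.27 and -0.11. Without Phase 1 replicate 3, 19 of 20 were positive with a median of 0.22, and *Mcm3*, *Mcm5* and *Mcm6* were called. The count was 2 without sgControl LP replicate 1 and 4 without Phase 1 replicate 2, and edgeR called 3 (*Mcm3*, *Mcm6* and *Uhrf1*), with 3.88% of all genes. The Notch response list summed to 44.3 to 60.2 CPM in the LPs and 846.5 to 1018.5 CPM in the Phase 1 cells, with 7 of its 8 genes called higher. Its part in these differences was not tested.

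In sgCbfb cells neither class had a call between the stages, beside 2.24% of all genes by limma. The unadjusted p was under 0.05 for 7 S-phase and 2 mitotic genes, and edgeR called 0 of both, with 2.63% of all genes. All 20 S-phase genes were positive in Phase 1, with a median log2 difference of 0.29, and 11 did not overlap, beside 9.19% of all genes in that direction. *Cdc45* (0.68), *Cdc6* (0.62, adjusted p = 0.0836) and *E2f1* (0.49) had the largest differences. The mitotic genes were spread around 0, with a median of -0.01 and a range from -0.33 for *Ube2c* to 0.21 for *Aurkb*. *Cdc20* had 165 ± 20.4 CPM in sgCbfb LPs and 166 ± 10.8 CPM in sgCbfb Phase 1 cells, a log2 difference of 0.01 with a 95% confidence interval from -0.45 to 0.48. *Cdk1* had 264, 256 and 268 CPM in the LPs and 275, 269.6 and 283 CPM in the Phase 1 cells. *Uhrf1* and *Cdc6* were called higher once Phase 1 sgControl replicate 3, which enters this comparison through the shared estimate of the spread alone, was left out, and *Cdc6* once Phase 1 sgCbfb replicate 3 was.

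**Figure D4:**
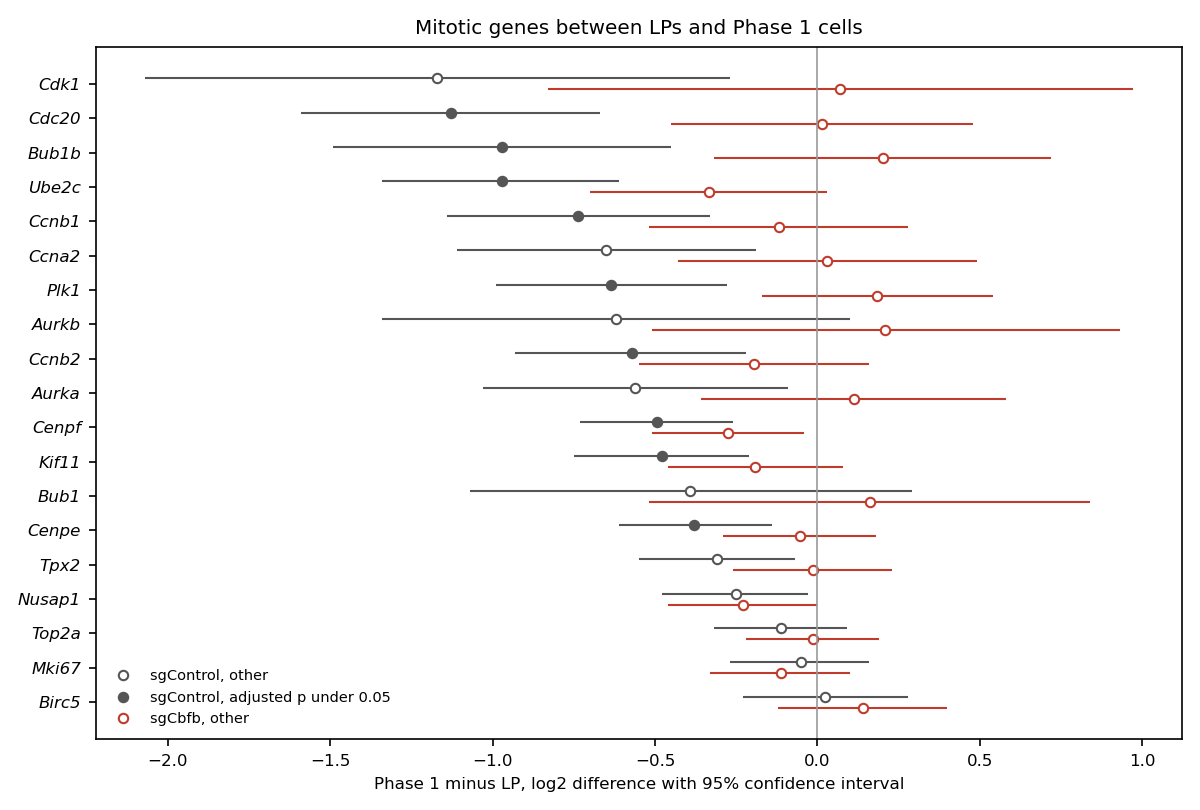
Log2 difference of each mitotic gene between Phase 1 cells and LPs (horizontal axis, Phase 1 minus LP, on log2(CPM + 1)) in sgControl cells (grey) and sgCbfb cells (red). Points are limma estimates from 3 libraries a group, lines the 95% confidence intervals, and filled points have an adjusted p under 0.05. The 9 filled points, all of sgControl, lie between -1.13 and -0.38.

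Targeting *Cbfb* in Phase 1 cells gave 1 call in each class. *Cdc20* rose from 97.6 ± 42.5 to 166 ± 10.8 CPM (SD, n = 3), by 0.86 on the log2 scale (SE 0.22, limma adjusted p = 0.0197), beside 3.37% of all genes called higher. *Mcm3* fell from 585 ± 18.7 to 436 ± 31.96 CPM, by 0.42 (SE 0.11, adjusted p = 0.0198), beside 2.6% called lower. The median log2 difference was 0.42 over the mitotic genes, with 18 of 19 positive, -0.04 over the S-phase genes and 0.06 over all genes. The groups did not overlap for 9 mitotic genes, all higher with sgCbfb, beside 11.7% of all genes, and for 4 S-phase genes, all lower, beside 9.28%. *Cdk1* (1.21, adjusted p = 0.117), *Bub1b* (0.79, 0.0697), *Ccnb1* (0.64, 0.052) and *Cenpe* (0.38, 0.0527) were not called. This comparison and the comparison of stages use the same sgControl Phase 1 libraries, in opposite directions, so their values are not independent. Without replicate 3 of those libraries *Mcm3* and *Cdc20* were called as before, and the mitotic median was 0.26. The mitotic count was 7 without Phase 1 sgControl replicate 1, 5 without replicate 2, 2 without LP sgCbfb replicate 1 and 0 without any 1 of the Phase 1 sgCbfb libraries. Leaving out sgControl replicate 1, or sgCbfb replicate 2 or 3, of the Phase 1 cells left no S-phase call, while leaving out sgControl replicate 2 gave 3 and sgCbfb replicate 1 gave 2. By edgeR 3 S-phase genes (*Mcm3*, *Mcm7* and *Uhrf1*) were lower, with 2.98% of all genes, and *Cdc20* was higher, with 3.15%. The Notch response list summed to 448.5 to 464.2 CPM in these sgCbfb cells, below the sgControl Phase 1 cells. Of its 8 genes *Tcf7*, *Gata3* and *Il2ra* were called lower and none higher. *Nrarp* (57.9 to 116 CPM), *Hes1* and *Notch3* went the other way, and edgeR called *Nrarp* higher and *Dtx1* lower. The myeloid list summed to 356.9 to 391.6 CPM against 52.2 to 64.6 CPM, led by *Mrc1* (1.62 to 210 CPM) and *F13a1*. These and *Fcgr3* were called higher among 7 tested genes, and *Cd68* and *Itgam* were lower without a call. The part of both lists was not tested.

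The difference between stages in what sgCbfb did was tested as an interaction. No member was called by limma, beside 1.27% of all genes, and the unadjusted p was under 0.05 for 0 S-phase and 7 mitotic genes. The median was 0.55 over the mitotic genes, with 18 of 19 positive, and 0.06 over both the S-phase genes and all genes. *Cdc20* had an interaction of 1.14 on the log2 scale (SE 0.32, limma adjusted p = 0.0907), *Bub1b* of 1.18 (SE 0.36, 0.144) and *Plk1* of 0.82 (SE 0.24, 0.12). By edgeR *Cdc20* alone was called (adjusted p = 0.039), with 1.4% of all genes. Without Phase 1 sgControl replicate 3 *Cdc20* was called by limma and the median was 0.28, and without replicate 1 *Cdc20*, *Bub1b* and *Plk1* were called.

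In LPs the loss of *Cbfb* was measured in both experiments. In experiment 1 no member was called by limma, beside 2.85% of all genes, the unadjusted p was under 0.05 for 2 S-phase genes and 1 mitotic gene, and edgeR called 0 members with 3.24% of all genes. In experiment 2, with more reads, *Fen1*, a flap nuclease of lagging strand synthesis, *Uhrf1*, *Mcm5* and *Mcm3* were lower, 4 of 20 S-phase genes beside 5.57% of all genes called lower. *Fen1* had 116, 100.4 and 94.0 CPM with sgControl and 97.5, 64.1 and 75.6 with sgCbfb, and its groups overlapped, since sgCbfb replicate 1 lay above sgControl replicate 3. It fell by 0.40 on the log2 scale (SE 0.13, limma adjusted p = 0.0499). *Uhrf1* fell by 0.36 (SE 0.12, adjusted p = 0.0473) and *Mcm5* by 0.35 (SE 0.12, 0.0475), and *Mcm3* by 0.33 (SE 0.10, 0.0341). In experiment 1 their log2 differences were -0.26, -0.42, -0.18 and -0.21. The S-phase median was -0.21 in experiment 1 and -0.22 in experiment 2, with 18 of 20 genes negative in each, beside 0.00 and -0.01 over all genes. The experiments have separate libraries and were fitted separately. No mitotic gene was called in experiment 2 by limma or edgeR, 0 had an unadjusted p under 0.05, and the mitotic median was -0.04, beside -0.11 in experiment 1. The 4 calls had adjusted p-values near 0.05. None was left without any 1 of the 3 sgControl libraries or sgCbfb replicate 2 or 3, *Mcm3* alone was left without any 1 of the sgCTCF libraries or sgMed12 replicate 3, 7 genes were called without sgCbfb replicate 1, and edgeR called *Mcm3* alone, with 5.47% of all genes lower. In experiment 1, *Plk1* was called lower without Phase 1 sgControl replicate 3. The myeloid list summed to 58.4 to 95 CPM in sgControl LPs and 500.2 to 591 in sgCbfb LPs of experiment 1, and to 64.3 to 72.3 and 723 to 815 CPM in experiment 2, and *Ctsg* was at 0. The sums were led by *Mrc1* (4.86 to 221 CPM in experiment 1) and *F13a1* (11.2 to 190 CPM). In experiment 1, 3 of 7 tested genes were called higher, and in experiment 2, 5 of 8, with none lower. The part of this list in the S-phase values was not tested.

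With sgCTCF the S-phase class had its largest number of calls. Of 20 S-phase genes 9 were lower than with sgControl and none was higher, beside 4.2% of all genes called lower. *Rrm2* fell from 141 ± 20.6 to 77.7 ± 12.1 CPM (SD, n = 3), by 0.86 on the log2 scale (SE 0.18, limma adjusted p = 0.00259). *Pola1*, the catalytic subunit of DNA polymerase alpha, had 162, 158 and 180.2 CPM with sgControl and 104, 96.3 and 108 with sgCTCF, far apart, and fell by 0.70 (SE 0.12, adjusted p = 0.000197). *E2f1*, which encodes an activator of S-phase genes, had 70.2, 68.5 and 61.6 CPM with sgControl and 38.1, 40.4 and 49.7 with sgCTCF, without overlap, and fell by 0.64 (SE 0.16, adjusted p = 0.0077). *Tyms*, the thymidylate synthase gene, and *Cdt1*, another loader of the Mcm helicase, fell by 0.60 and 0.59. The other 4 were *Rrm1*, *Mcm3*, *Mcm7* and *Mcm2*, with log2 differences between -0.45 and -0.33. The median was -0.36 with 19 of 20 negative, beside -0.02 over all genes, and 16 genes did not overlap, all lower, beside 15.1% of all genes. By edgeR 8 of the 9 were called (all but *Mcm2*), with 3.65% of all genes lower. The count was 5 without sgCTCF replicate 2 and 14 without sgMed12 replicate 2, a library that shares in the estimate of the spread. Marker lists differed between these groups too. The myeloid list summed to 96.1 to 129.6 CPM with sgCTCF against 64.3 to 72.3 with sgControl, with 1 of its 8 tested genes higher (*Fcgr3*, by 1.06, limma adjusted p = 0.00023), 2 lower (*Mpo* and *F13a1*), and *Ctsg* and *Elane* at 0 in both groups. The Notch response list summed to 63.1 to 67.4 CPM against 28.5 to 38, with *Tcf7* and *Hes1* of 6 tested genes higher. The lymphoid list summed to 1328.4 to 1434.9 against 1366.1 to 1558.5 CPM, with *Cd34*, *Kit* and *Flt3* of 8 lower. Their part in the S-phase and mitotic values was not tested.

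The mitotic genes were also on the low side with sgCTCF, by less. All 19 log2 differences were negative, between -0.39 and -0.03 with a median of -0.20, and 1 gene was called lower, beside 4.2% of all genes. This was *Mki67*, which encodes the proliferation antigen Ki-67, with 715, 755 and 719 CPM with sgControl and 536, 535 and 599 with sgCTCF, without overlap. It fell by 0.39 (SE 0.13, limma adjusted p = 0.0472). The call was lost by edgeR, which called 0 (unadjusted limma p under 0.05 for 5), and without any 1 of the 3 sgControl or the 3 sgCTCF libraries, sgCbfb replicate 2 or sgMed12 replicate 3, and 2 and 4 genes were called without sgMed12 replicate 1 or 2. *Cdc20* had 226 ± 10.1 CPM with sgControl and 206 ± 15.2 with sgCTCF, and its groups overlapped. The share of calls in the mitotic class, 5.26%, was near the share over all genes. The groups did not overlap for 9 of the 19 genes, all lower, beside 15.1% of all genes.

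With sgMed12 both classes had calls, all lower. They were 5 of 20 S-phase and 8 of 19 mitotic genes, beside 4.7% of all genes called lower. *Nusap1*, a spindle microtubule protein, had 332, 419.7 and 311 CPM with sgControl and 217, 227 and 243 with sgMed12, without overlap, and fell by 0.62 on the log2 scale (SE 0.12, limma adjusted p = 0.00286). *Cdc20* fell by 0.54 (SE 0.15, adjusted p = 0.0338), from 226 ± 10.1 to 161 ± 52.9 CPM (SD, n = 3). *Top2a*, which unlinks sister DNA, had 2732, 2709.7 and 2716 CPM with sgControl and 1853, 1932 and 2119 with sgMed12, and fell by 0.47 (SE 0.10, adjusted p = 0.00898). The other 5 were *Bub1b*, *Cdk1*, *Birc5*, *Ccnb1* and *Cenpf*, with log2 differences between -0.45 and -0.37. *Ube2c*, with 403, 352 and 399 CPM, did not join them, at 0.02. Among S-phase genes *Rrm2* fell by 0.74 (SE 0.18, adjusted p = 0.0175), *Mcm4* by 0.53 (SE 0.13, 0.021), *Mcm6* by 0.48 (SE 0.14, 0.0363), *Mcm7* by 0.42 (SE 0.12, 0.0427) and *Mcm3* by 0.35 (SE 0.10, 0.0387). Of these 13 genes only *Mcm6* had overlapping groups. *Tyms* stood on the other side, with 41.9, 38.7 and 45.3 CPM with sgControl and 57.4, 46.2 and 50.5 with sgMed12, a log2 difference of 0.28 that was not called (limma adjusted p = 0.28). The medians were -0.27 over the S-phase genes and -0.40 over the mitotic genes, beside -0.02 over all genes, and the groups of 9 S-phase and 14 mitotic genes did not overlap on the lower side, beside 11.9% of all genes, while *Tyms* did not overlap on the higher side.

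The sgMed12 values depended on library and scale. Its replicate 2, with the lowest mitochondrial share of the group, had the highest level of *Mcm4*, *Mcm6*, *Mcm7*, *Rrm2* and *Cdc20* in the group. With mitochondrial genes and the most abundant gene, *CT010467.1*, left out of the library total, *Rrm2*, *Mcm4*, *Nusap1*, *Top2a* and *Birc5* were called, the medians were -0.16 and -0.30 and that of all genes 0.08. The S-phase count was 0 without sgMed12 replicate 1 or 3, 9 without sgMed12 replicate 2, 1, 1 and 0 without sgControl replicate 1, 2 or 3, and 3 without any 1 of the sgCTCF libraries or sgCbfb replicate 3. The mitotic count was 3 without sgMed12 replicate 1 or 3, 12 without sgMed12 replicate 2, and 2, 3 and 3 without sgControl replicate 1, 2 or 3. *Nusap1* and *Top2a* were among the genes called without each 1 of these 6 sgMed12 and sgControl libraries. By edgeR *Rrm2* and *Mcm4* and 4 mitotic genes (*Nusap1*, *Top2a*, *Bub1b* and *Birc5*) were lower, with 2.91% of all genes. Without sgMed12 replicate 2 the medians were -0.37 over the S-phase genes and -0.44 over the mitotic genes. The myeloid list summed to 85.4 to 104.8 CPM with sgMed12, above sgControl, with *Fcgr3* of 8 tested genes higher and *Ctsg* at 0. The Notch response list summed to 50.6 to 59.3 CPM, above sgControl, with *Hes1* of 6 tested genes higher, and the lymphoid list to 1115.9 to 1362 CPM, below sgControl, with *Cd34* of 8 genes higher and *Dntt* and *Flt3* lower. The part of the mitochondrial share and of these lists in the values was not tested.

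**Figure D5:**
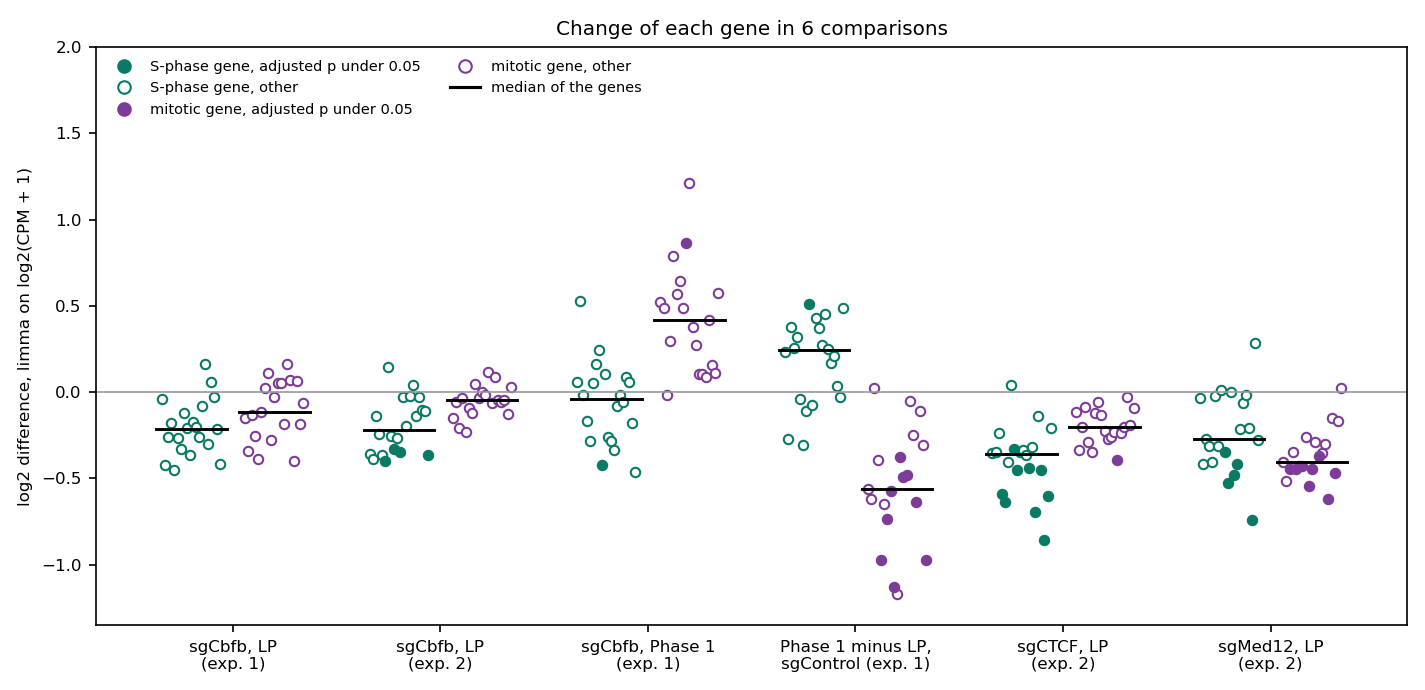
Log2 difference (vertical axis, limma on log2(CPM + 1)) of every S-phase gene (green) and mitotic gene (purple) in the 6 comparisons. Filled points have an adjusted p under 0.05, and black lines are the medians. Mitotic genes lie low between the stages in sgControl cells (median -0.56) and S-phase genes low with sgCTCF (median -0.36), and the comparisons within an experiment share sgControl libraries.

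The targeted groups of experiment 2 were then compared directly, which does not use the sgControl levels. With sgCTCF 4 S-phase genes were lower than with sgCbfb, beside 10.9% of all genes called lower. *Rrm2* fell by 0.75 (SE 0.18, limma adjusted p = 0.00337), *Pola1* by 0.74 (SE 0.12, 2.56e-05), *Tyms* by 0.50 (SE 0.16, 0.0215) and *Rrm1* by 0.42 (SE 0.10, 0.00233), each without overlap. *Mki67* and *Cenpf* were lower as well, by 0.48 (limma adjusted p = 0.00608) and 0.38 (0.0171). These 2 of 19 mitotic genes (10.5%) were no more than the 10.9% of all genes called lower. The S-phase count was 8 without sgMed12 replicate 2, and the mitotic count was 1 without sgCTCF replicate 1 or 2 or sgCbfb replicate 2 and 0 without sgCbfb replicate 3. By edgeR 4 S-phase and 2 mitotic genes were called, the same 6, with 10.2% of all genes lower.

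With sgMed12, compared with sgCbfb, 6 mitotic genes were lower, beside 9.77% of all genes called lower. *Nusap1* had 317, 356 and 352 CPM with sgCbfb, all above the 3 sgMed12 libraries. The 6 were *Nusap1*, by 0.57 (SE 0.12, limma adjusted p = 0.000797), *Cdc20*, by 0.51 (SE 0.15, 0.0228), *Cenpf*, by 0.48 (SE 0.11, 0.00351), *Cdk1*, *Top2a* and *Mki67*, and all 19 mitotic differences were negative, with a median of -0.31. The S-phase genes went both ways, with *Rrm2* lower by 0.64 (limma adjusted p = 0.016), *Mcm6* lower by 0.45 (0.026) and *Mcm5* higher by 0.35 (0.039). These 3 of 20 (15%) were no more than the 16.8% of all genes called in either direction, with 7.03% of all genes called higher. Each of these 3 had overlapping groups. The mitotic count was 12 without sgMed12 replicate 2 and 3 without sgCbfb replicate 3. The S-phase count was 5 without sgCbfb replicate 1, 9 (3 higher and 6 lower, *Mcm5* not among them) without sgMed12 replicate 2, 1 without sgMed12 replicate 1 or sgCbfb replicate 2 or 3, and 0 without sgMed12 replicate 3.

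Compared with sgCTCF, 5 of 20 S-phase genes were higher with sgMed12, beside 8.09% of all genes called higher, and 2 of 19 mitotic genes (10.5%) were lower, no more than the 11.9% of all genes called lower. *Tyms* had 57.4, 46.2 and 50.5 CPM with sgMed12 and 27.4, 22.8 and 32.4 with sgCTCF, without overlap, and was higher by 0.88 (SE 0.16, limma adjusted p = 0.000258). *Pola1* was higher by 0.63 (SE 0.12, adjusted p = 0.000413) and *Fen1* by 0.38 (SE 0.13, 0.0425), and *Mcm2* and *Mcm5* by 0.34 each. *Top2a* was lower by 0.44 (SE 0.10, adjusted p = 0.00323) and *Nusap1* by 0.38 (SE 0.12, 0.0216). *Rrm2*, low in both groups, did not differ past the threshold, with 87.6 ± 33.8 CPM and 77.7 ± 12.1 CPM. *Tyms* and *Pola1* were called without each of the 12 libraries of the experiment, whereas the S-phase count was 2 without sgCTCF replicate 1 or 2 or sgMed12 replicate 3 and 3 without sgCTCF replicate 3 or sgCbfb replicate 3. Without sgMed12 replicate 2 the S-phase calls went both ways, with 4 higher (*Tyms*, *Pola1*, *Fen1* and *Mcm2*) and 3 lower (*Gins2*, *Mcm4* and *Mcm6*), and 8 mitotic genes were lower. The mitotic count was 1, *Top2a*, without sgMed12 replicate 1 or sgCTCF replicate 1 or 3. These 3 comparisons share libraries with each other.

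The other genes of each task were read in lists of 48 replication genes and 57 of 58 listed mitotic genes. Their values are from all libraries, including those that stood apart from their groups. Between the stages in sgControl cells 4 other mitotic genes were lower and none was higher, 7.02% of the list beside 6.48% of all genes called in either direction. Among them were *Ska3*, of the outer kinetochore, and *Cenpa*, the centromeric histone, by 1.2 and 1.02 on the log2 scale, and the list's median was -0.22. In the replication list 4 were higher, *Gins3* (0.83), *Hells* (0.53), *Clspn* and *Lig1*, and *E2f2* was lower by 0.91, 10.4% of the list. In sgCbfb cells *Hells*, a chromatin remodeller, was higher by 0.60 in Phase 1, which is 2.08% of the list beside 2.24% of all genes. With sgCbfb in Phase 1 cells *E2f7* (1.49) and *E2f2* (1.02), which encode E2F factors, were higher, 4.17% beside 5.97% of all genes, and no other mitotic gene was called. In LPs with sgCbfb *Lig1*, the replicative DNA ligase, was higher by 0.38 in experiment 1, 2.08% beside 2.85%. In experiment 2 *Dscc1* and *Clspn* were lower, by 0.76 and 0.40, as were the mitotic genes *Spc24* (-0.49) and *Ect2* (-0.47), and *Kif15* was higher by 0.31. These were 4.17% and 5.26% of the lists, less than the 12.5% of all genes called. None of these sgCbfb shares was above that of all genes.

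With sgCTCF 12 of the 48 other replication genes were lower and none was higher (25.0% beside 10.3% of all genes called in either direction), led by *Dscc1* (-0.79) and *Mcm10* (-0.73), which acts in origin firing. The list's median was -0.26. Of the other mitotic genes 9 were lower, led by *Knl1* (-0.54), of the kinetochore, and *Anln* (-0.51), of the cleavage furrow, 15.8% of the list, with a median of -0.27. With sgMed12 4 other replication genes were lower, led by *E2f2* (-0.66) and *Tk1* (-0.60), and 9 other mitotic genes, led by *Lmnb1* (-0.59) and *Cks1b* (-0.58), 8.33% and 15.8% beside 7.22% of all genes. The medians were -0.09 and -0.18. Compared with sgCbfb, 6 other replication genes were lower with sgCTCF, led by *Lig1* (-0.69) and *E2f8* (-0.56), and 11 other mitotic genes, led by *Kif15* (-0.65) and *Ndc80* (-0.64), 12.5% and 19.3% of the lists beside 22.3% of all genes. Between sgMed12 and sgCbfb 7 other replication genes were higher, led by *Slbp* (0.62) and *Exo1* (0.47), and 3 were lower, led by *E2f2* (-0.93) and *Lig1* (-0.67), with 2 other mitotic genes higher (*Cenpn*, 0.60, and *Ect2*, 0.46) and 9 lower, led by *Pttg1* (-0.65) and *Cks1b* (-0.64). These were 20.8% and 19.3% of the lists, near the 16.8% of all genes. Between sgMed12 and sgCTCF 14 of 48 other replication genes were higher, led by *Exo1* (0.88) and *Pole* (0.84), and *E2f2* (-0.68) and *Tk1* (-0.49) were lower, 33.3% called beside 20% of all genes in either direction. There 6 other mitotic genes were higher, led by *Cit* (0.53) and *Knl1* (0.48), and *Pttg1* (-0.69) and *Lmnb1* (-0.42) were lower, 14% of the list.

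Of 14 genes of the DREAM and RB complexes, which hold the promoters of both classes off in resting cells, none was called by limma or edgeR in the 5 comparisons of experiment 1 or in the comparisons of sgCbfb with sgControl or sgMed12 in experiment 2. The unadjusted limma p was under 0.05 for 0 to 3 of them in each of these 7, where 1.27% to 16.8% of all genes were called by limma. With sgCTCF *Rb1*, the retinoblastoma gene, was higher by 0.66 (SE 0.19, limma adjusted p = 0.0244), from 26.2 to 41.7 CPM, and *Tfdp2*, an E2F partner, lower by 0.67 (SE 0.14, 0.00212), from 50.8 to 31.4 CPM. The same pair differed between sgCTCF and sgCbfb, by 0.69 and -0.75, and between sgMed12 and sgCTCF, by -0.95 and 0.59. With sgMed12 *Rbl2*, which encodes p130, was lower by 0.51 (limma adjusted p = 0.0318), and by 0.55 compared with sgCTCF. The genes called were 14.3% of the 14 with sgCTCF and 7.14% with sgMed12, beside 10.3% and 7.22% of all genes. They were 14.3% for sgCTCF against sgCbfb and 21.4% for sgMed12 against sgCTCF, beside 22.3% and 20% of all genes. None of these shares was far above that of all genes.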

How the data were processed

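RNA was measured by QuantSeq 3′ sequencing in 24 libraries, 8 groups of 3, grouped by their labels. The single-end reads were trimmed (fastp) and aligned to the mm10 genome (STAR), after which the authors scaled the reads of each gene by the library total and deposited the CPM values, under the name TPM. They are not divided by length, and whole reads were recovered from 100.0% of them (tolerance 0.01 reads). The counter, annotation and strand setting are not given in the sources used here. 1 value column of experiment 2 belonged to no labelled sample and was not used. Reads on genes set the precision: 3 reads, the limit that a count of 0 allows, were 1.721 to 2.201 CPM in experiment 1 and 0.693 to 0.894 CPM in experiment 2, for counting error only.

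Each experiment was fitted separately, over its 4 groups, with limma 3.58.1 (R 4.3.3) on log2(CPM + 1) with a mean trend. A gene was tested where 3 or more libraries of the experiment reached 1 CPM, 13239 in experiment 1 and 13177 in experiment 2, and p-values were adjusted over all of them by the Benjamini-Hochberg method. A fold change on this scale understates that of low genes. Alternatives were edgeR 4.0.16 quasi-likelihood on the recovered reads, other pseudocounts, filters, scalings and thresholds, the groups compared alone, a replicate block and each library left out, and a library total without mitochondrial genes and *CT010467.1*, added after seeing the data. The fits were tested on simulated data with the same spread for all genes and libraries. No simulated library stood apart from its group, so that test does not cover the libraries that did so here. Tables were handled with pandas 2.3.3 and drawn with matplotlib 3.10.9.

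The members and gene lists were chosen with earlier results of these data known. For each comparison and class up to 3 called members that rose most and up to 3 that fell most were named, with the value in every library for the first of each, together with the 4 members of each class called most often, those called nowhere and the 2 largest of each fixed list. Other names account for the remaining called members or were chosen after their values were seen.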

Additional observations from a re-analysis of the deposited data

How the results depend on the processing

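Counts of called members under each alternative are given where they differed from those of the report by over 1.5 times, S-phase before mitotic genes. With a pseudocount of 0.1 the S-phase count was 2 between the stages in sgControl cells and 1 with sgCbfb in LPs of experiment 2, and the mitotic count was 0 with sgCTCF. With a pseudocount of 5 these were 2 S-phase genes between the stages, 0 mitotic genes with sgCTCF and 2 mitotic genes with sgCbfb in Phase 1. With no filter on low values the counts were 0 S-phase genes with sgCbfb in experiment 2, 0 mitotic genes with sgCTCF, 0 and 3 with sgMed12, 0 and 3 for sgMed12 against sgCbfb, and 3 and 1 for sgMed12 against sgCTCF. With a mean over 10 CPM required they were 2 and 3 with sgCbfb in Phase 1 and 2 S-phase genes between the stages in sgControl cells. With median-of-ratios scaling they were 2 S-phase genes with sgCbfb in Phase 1, 4 between the stages, 3 with sgMed12 and 5 for sgMed12 against sgCbfb, and 0 mitotic genes with sgCTCF. With the library total without mitochondrial genes and *CT010467.1* they were 2 and 2 with sgCbfb in Phase 1, 3 S-phase genes between the stages, 0 mitotic genes with sgCTCF, 2 and 3 with sgMed12, 5 S-phase genes for sgMed12 against sgCbfb and 1 mitotic gene for sgMed12 against sgCTCF. By edgeR they were 3 S-phase genes with sgCbfb in Phase 1, 3 between the stages, 1 with sgCbfb in experiment 2 and 2 with sgMed12, and 1 mitotic gene for the interaction, 0 with sgCTCF and 4 with sgMed12. With only the groups compared in the fit, which leaves fewer samples to estimate the spread, they were 1 mitotic gene with sgCbfb in LPs of experiment 1, 0 with sgCbfb in Phase 1 and 3 between the stages in sgControl cells, 2 S-phase genes between the stages in sgCbfb cells, 14 and 5 with sgCTCF, 0 and 1 with sgMed12, 7 S-phase genes for sgCTCF against sgCbfb, 0 and 3 for sgMed12 against sgCbfb, and 3 S-phase genes for sgMed12 against sgCTCF. Under the study's thresholds, which also ask for a log2 change of 1 and a mean of 10 CPM, all counts were 0 except 1 mitotic gene, *Cdc20*, between the stages in sgControl cells. The causes of these differences were not tested.

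The main fit did not pair libraries by replicate number. Between same-numbered libraries of different groups, deviations had correlations from -0.038 to 0.14 (median 0.041) in experiment 1. In experiment 2 these ran from -0.13 to 0.216 (median 0.074). Libraries of different number had -0.122 to 0.075 (median -0.02) and -0.223 to 0.143 (median -0.026). The same-number medians were higher in both experiments, so the numbers may pair the samples weakly. With the number as a replicate block the counts were 2 and 4 with sgCbfb in Phase 1, 2 S-phase genes between the stages in sgControl cells, 2 mitotic genes for the interaction and 2 S-phase genes with sgCbfb in experiment 2, and it moved no other count by over 1.5 times.

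When 1 library at a time was left out, the counts ranged, for S-phase and then mitotic genes, from 0 to 3 and 0 to 7 with sgCbfb in Phase 1, from 1 to 4 and 2 to 11 between the stages in sgControl cells, from 5 to 14 and 0 to 4 with sgCTCF, from 0 to 9 and 2 to 12 with sgMed12, from 3 to 8 and 0 to 3 for sgCTCF against sgCbfb, from 0 to 9 and 3 to 12 for sgMed12 against sgCbfb, and from 2 to 7 and 1 to 8 for sgMed12 against sgCTCF. They ranged from 0 to 7 S-phase genes with sgCbfb in experiment 2, from 0 to 2 between the stages in sgCbfb cells, and, for mitotic genes, from 0 to 1 with sgCbfb in LPs of experiment 1 and from 0 to 3 for the interaction. Over the 39 genes and 11 comparisons the sign of 111 of 429 log2 differences turned when some 1 library was left out, and none of these 111 was called. Among them were 8 of the 82 values of genes named by rule, whose log2 differences ranged from -0.013 to 0.049 for *Ccnb1*, from -0.011 to 0.126 for *Cenpf* and from -0.122 to 0.128 for *Rrm2* with sgCbfb in LPs of experiment 1, from -0.098 to 0.178 for *Rrm2* with sgCbfb in Phase 1, from -0.085 to 0.191 for *Rrm2* between the stages in sgControl cells, and from -0.072 to 0.035 for *Cdc20*, from -0.065 to 0.006 for *Rrm1* and from -0.184 to 0.01 for *Rrm2* with sgCbfb in experiment 2. With 3 libraries a group, calls near the threshold depended on single libraries.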
